A study of Mus musculus with 2 samples.

Results

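The genes described here are 10 transcriptional regulators linked to effector function and exhaustion of T cells: Tbx21, Eomes, Zeb2, Prdm1, Id2, Bhlhe40, Tox, Batf, Irf4 and Maf. They were chosen by name from the 31053 mouse genes of the gene expression library, and all 10 were detected. T cells were sorted on TCR-β from tumors of C57BL/6J mice on day 9. The tumors came from B16, a mouse melanoma line, or from B16–IL-33, the same line made to overexpress secreted IL-33, which is 1 engineered line. Cells of both tumors carried hashtag antibodies, were pooled and gave 1 gene expression, 1 hashtag and 1 TCR library, so a group of cells is not a group of animals and no test between samples was possible.

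Of 14035 barcodes, 9078 had 200 to 2500 detected genes and under 5% mitochondrial UMIs, with a median of 2467 UMIs. Cells were gated by their own UMIs. The rules gave 1260 CD8+ T cells (more Cd8a and Cd8b1 than Cd4 and Foxp3), 2609 Treg cells (Foxp3, no CD8 gene), 1769 Tconv cells (Cd4, neither Foxp3 nor a CD8 gene) and 81 NKT cells (Zbtb16, neither Foxp3 nor a CD8 gene). Of the 81, 21 also met the Tconv rule, and 16 carried the TRAV11–TRAJ18 alpha chain of invariant NKT cells, so the group is defined by Zbtb16 and not by its receptor. The rest, 3380 cells, fell in no lineage. At least 1 UMI of Cd3d, Cd3e or Cd3g was present in all but 24 of the CD8+, 66 of the Treg, 42 of the Tconv and 1 of the NKT cells. Macrophage and monocyte transcripts (9 genes, all detected in CD8+, Treg and Tconv cells, with C1qb, C1qc and Adgre1 at 0 in NKT cells) summed to 399 CPM (counts of a gene or list per 1000000 mouse UMIs of the group) in CD8+, 379 in Treg, 382 in Tconv and 532 in NKT cells, against 14053 in 240 barcodes of the same pool with at least 5 such UMIs and no CD3 UMI, which served as the macrophage and monocyte reference. NK markers (Ncr1, Klrb1c and Klre1) summed to 64.7 CPM in CD8+, 3.03 in Treg, 10.4 in Tconv and 79.0 in NKT cells, with Ncr1 at 0 in Tconv and NKT cells. TCR contigs were found for 6665 of the 14035 barcodes. The hashtag library shared 11756 barcodes with them, but only 939 kept cells could be given a tumor.

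T-bet (Tbx21) and Eomesodermin (Eomes) are T-box factors that drive cytotoxic and memory programs, and ZEB2 acts with T-bet in terminal effector cells. Blimp-1 (Prdm1), ID2, which blocks E proteins, and BHLHE40 are associated with effector and tissue-resident cells, while TOX is known for maintaining exhausted CD8+ T cells. BATF and IRF4 act downstream of the antigen receptor, often bound together at composite AP-1 sites, and with Blimp-1 and c-MAF (Maf) they are known for their part in effector Treg cells and in IL-10 expression.

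Windows of 250 bases upstream of the transcription start were taken for 7 of the 10 genes from a table of RefSeq promoters (GRCm38.p6). Bhlhe40, Tox and Maf were not matched in the table used. Windows were searched on both strands for the AP-1 site TGANTCA, which BATF can bind with a partner, the T-box site AGGTGTGA, and the E-boxes CACCTG, bound by ZEB proteins, and CACGTG, bound by BHLHE40. The letters CAGGTG of the second strand can overlap the T-box letters. The 3 genes with a match are shown 5′ to 3′ on the strand of the gene, with matches in capitals. They were chosen by the match alone, and genes with a window but no match, such as Eomes, also separate lineages below.
Tbx21, chr11:97115332-97115581, minus strand: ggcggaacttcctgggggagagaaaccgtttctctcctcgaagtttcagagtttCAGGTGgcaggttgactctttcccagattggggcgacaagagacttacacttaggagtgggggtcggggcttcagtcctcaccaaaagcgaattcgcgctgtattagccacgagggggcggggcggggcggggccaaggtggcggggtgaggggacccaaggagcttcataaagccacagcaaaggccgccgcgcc
Zeb2, chr2:45110278-45110527, minus strand: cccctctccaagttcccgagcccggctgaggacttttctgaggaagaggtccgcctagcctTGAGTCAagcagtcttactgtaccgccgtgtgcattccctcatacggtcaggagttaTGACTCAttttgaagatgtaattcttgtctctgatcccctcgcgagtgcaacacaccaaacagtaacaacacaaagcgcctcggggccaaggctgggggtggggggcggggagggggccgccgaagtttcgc
Prdm1, chr10:44458749-44458998, minus strand: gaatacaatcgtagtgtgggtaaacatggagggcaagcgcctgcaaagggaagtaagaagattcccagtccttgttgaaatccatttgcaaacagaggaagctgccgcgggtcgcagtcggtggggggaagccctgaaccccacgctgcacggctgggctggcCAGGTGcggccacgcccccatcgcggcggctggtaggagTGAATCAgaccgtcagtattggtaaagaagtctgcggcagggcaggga
The Prdm1 window holds 1 AP-1 letter match, 48 bases upstream of the start used there, and 1 CACCTG match, and the Tbx21 window holds 1 CACCTG match. The Prdm1 window and the Zeb2 window shown lie inside the gene coordinates given below. Their starts are thus internal to those coordinates. The Zeb2 window shown, 1 of 4 for this gene, holds 2 AP-1 matches. Over all 32851 promoter windows, 6.75% held the AP-1 letters, 17.2% CACCTG, 6.02% CACGTG and 1.12% the T-box letters. The last 2 motifs matched no window of the 7 genes. A match is a run of letters, and binding was not measured.

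Across the 4 lineages, Eomes was almost a CD8+ gene, Maf and Prdm1 were highest in Treg cells, and Id2 was highest in NKT cells. Values are UMIs summed over the cells of a group as CPM, and intervals are exact at 95%. They cover counting error only, and fewer positive cells and less RNA per cell were not separated by a sum. Levels in CPM were compared between groups of cells within a gene, and gene length was not accounted for.

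Eomes (chr9:118478212-118486132, plus strand, GRCm38) stood at 55.0 CPM in CD8+, 3.98 in Tconv and 2.42 in Treg cells, and no UMI was seen in NKT cells, where 3 counts would be 10.8 CPM. The CD8+ level was 13.8 times that of Tconv cells (8.77 to 23.0), and the Treg and Tconv intervals overlapped. After every cell was thinned to 1500 UMIs, 7.21% of CD8+ cells had an Eomes UMI (5.78 to 8.86), against 0.325% of Treg and 0.622% of Tconv cells. The reference had a share of 2.84% (0.929 to 6.50) and 12.3 CPM, and without its cells with an NK marker UMI 0.606% (0.0153 to 3.33) and 1.18 CPM (0.0299 to 6.58). Those last intervals rest on 1 Eomes UMI and hold the shares and levels of Treg and Tconv cells. They are too wide to tell whether Eomes was above background there. The part of NK markers in the CD8+ level was not tested.

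Tbx21 was less restricted. Tbx21 (chr11:97098071-97115331, minus strand) was at 53.8 CPM in CD8+, 64.7 in NKT, 32.7 in Tconv and 31.5 in Treg cells, and the macrophage reference held 5.60. Here and below, ratios of NKT to Tconv cells do not count as Tconv the 21 cells that met both rules, and Tbx21 was then at 31.8 CPM in 1748 Tconv cells. CD8+ cells were 1.65 times (1.35 to 2.01) and NKT cells 2.03 times (1.18 to 3.32) as high as Tconv cells, and NKT and CD8+ intervals overlapped. Tbx21 and Eomes thus differed in NKT cells, where Tbx21 had 18 UMIs and Eomes 0.

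Zeb2 (chr2:44983632-45117395, minus strand) is also a macrophage gene, at 395 CPM in the reference cells. Its level was 35.4 CPM in CD8+, 24.1 in Tconv, 22.8 in Treg and 43.1 in NKT cells. The 12 NKT UMIs lay in 2 cells, and among cells with a CD3 UMI and under 3 macrophage UMIs the ratio of NKT to Tconv cells turned from 1.77 (0.892 to 3.22) to 0.260. In the same cells the ratio of CD8+ to Tconv cells went from 1.47 (1.16 to 1.87) to 1.94.

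Prdm1 (chr10:44437177-44528501, minus strand) was highest in Treg cells, at 91.5 CPM, against 38.2 in Tconv and 33.4 in CD8+ cells. The Treg level was 2.39 times the Tconv level (2.04 to 2.82), and the intervals of Tconv and CD8+ cells overlapped. Only 1 Prdm1 UMI was found in the 81 NKT cells, 0.0924 times the Tconv level (0.00233 to 0.521). None was found in the 62 kept cells with the invariant alpha chain, which together held 206915 UMIs.

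Maf (chr8:115682942-115707794, minus strand) showed the widest range among lineages with 10 or more UMIs other than Eomes. It stood at 500 CPM in Treg, 249 in Tconv, 111 in NKT and 63.1 in CD8+ cells, and no 2 neighbours in this order had overlapping intervals. Treg cells were 2.01 times (1.88 to 2.14) and CD8+ cells 0.254 times (0.224 to 0.287) the Tconv level. The macrophage reference held 217 CPM of Maf. With cells limited to those with a CD3 UMI and few macrophage UMIs these ratios were 2.04 and 0.249.

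Batf (chr12:85686669-85709087, plus strand) followed the same order at the top, with 263 CPM in Treg, 166 in Tconv, 136 in CD8+ and 97.0 in NKT cells. The ratio was 1.58 (1.46 to 1.72) for Treg and 0.820 (0.740 to 0.908) for CD8+ against Tconv cells. Irf4 (chr13:30749226-30766976, plus strand), whose product pairs with BATF, did not separate Treg from Tconv cells, at 41.8 and 43.2 CPM with a ratio of 0.966 (0.813 to 1.15). It was lower in CD8+ cells, at 27.5 CPM and 0.636 times Tconv (0.511 to 0.791), and NKT cells had 3 UMIs, a ratio of 0.246 (0.0504 to 0.730).

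Tox (chr4:6686353-6991557, minus strand), known from exhausted CD8+ T cells, was not highest in CD8+ cells. Treg cells held 69.4 CPM, CD8+ cells 48.7, Tconv cells 45.6 and NKT cells 32.3, while the macrophage reference held 2.24. Treg cells were 1.52 times the Tconv level (1.30 to 1.78), close to the 1.5-fold limit used below, and CD8+ and Tconv cells were not separated, at 1.07 (0.888 to 1.28).

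Id2 (chr12:25093799-25097140, minus strand) was detected in the largest share of all kept cells of the 10 genes, with a UMI in 52.8% of thinned CD8+, 47.8% of Treg, 42.8% of Tconv and 64.6% of NKT cells. In thinned Treg cells Maf was not separated from Id2, at 47.3% (45.2 to 49.4). Its CPM was 1056 in NKT, 698 in CD8+, 598 in Treg and 539 in Tconv cells, and each step of this order was larger than the counting intervals. NKT cells were 1.99 times the 1748 Tconv cells outside the NKT rule (1.76 to 2.25), which had 531 CPM. Bhlhe40 (chr6:108660629-108666925, plus strand) ran differently, with 259 CPM in Tconv and 251 in CD8+ cells, whose intervals overlapped, and 181 in Treg and 162 in NKT cells. Both genes were also high in the macrophage reference, at 1073 and 330 CPM.

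**Figure D1:**
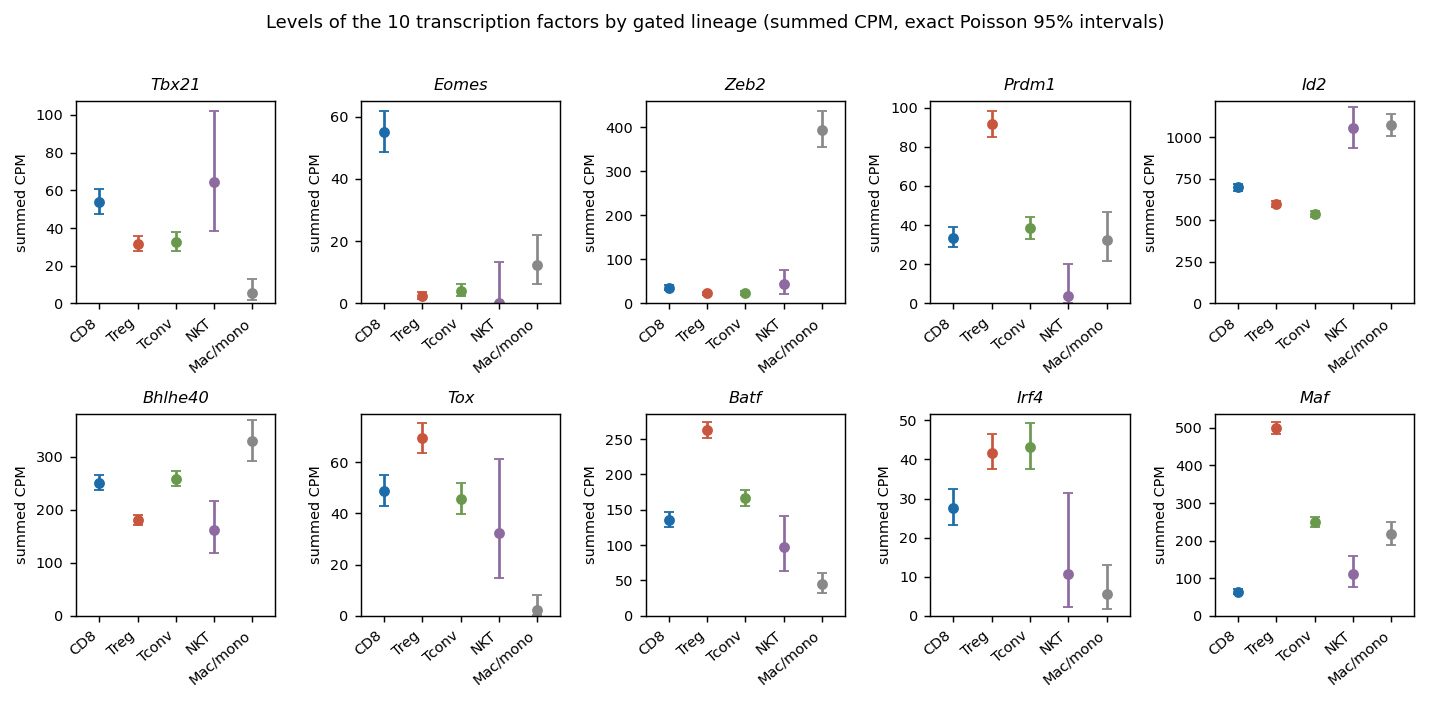
Summed CPM of each of the 10 genes (y axis, from 0, scaled per panel) in CD8+, Treg, Tconv and NKT cells and in the macrophage and monocyte reference (x axis), with exact Poisson 95% intervals. Eomes is at 55.0 CPM in CD8+ cells and under 4 CPM in Treg and Tconv cells, Maf and Prdm1 are highest in Treg cells at 500 and 91.5 CPM, and Zeb2 is highest in the reference at 395 CPM.

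To set these differences against all genes, a gene was counted when its ratio was at least 1.5-fold in either direction and it had at least 50 UMIs over both groups. In CD8+ against Tconv cells, 2 of 10 were higher (Tbx21 and Eomes) and 2 lower (Irf4 and Maf), where 5.17% of 8652 genes were higher and 12.0% lower. In Treg against Tconv cells, 4 of 9 genes were higher (Prdm1, Tox, Batf and Maf) and 0 lower, where 12.6% of 9280 genes were higher and 5.82% lower. In NKT against Tconv cells, 3 of 9 were higher (Tbx21, Zeb2 and Id2) and 5 lower (Prdm1, Bhlhe40, Batf, Irf4 and Maf), where 10.5% of 7200 genes were higher and 23.4% lower. Of these, Zeb2 had an interval that included 1 (0.892 to 3.22), from 12 UMIs in 2 NKT cells.

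Other T cell transcription factors and target genes gave the setting. Of 32 further factors, 2 of 28 with enough UMIs were higher and 11 lower in CD8+ than in Tconv cells, with Id3 at 2.65 times (2.19 to 3.20) and Nr4a2 at 2.67 times (2.32 to 3.07). In Treg cells 7 of 30 were higher and 5 lower. Among the latter were Tcf7, the TCF-1 gene of naive and memory cells, at 0.187 times (0.167 to 0.209), and Bach2, known to oppose Prdm1, at 0.181 times (0.126 to 0.254) the Tconv level. Of 10 effector genes 8 were higher in CD8+ cells, with Gzma at 13.4 times and Prf1 at 10.5 times, and of 8 inhibitory receptor and exhaustion genes 6 were higher in Treg cells, including Il10 at 2.70 times (2.32 to 3.16).

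Pdcd1, which encodes the inhibitory receptor PD-1, split the CD8+ cells into 360 with and 900 without a UMI. Tox was higher and Zeb2 lower in the Pdcd1-positive cells. Tox stood at 65.2 CPM with and 38.7 without Pdcd1, a ratio of 1.68 (1.30 to 2.18). Zeb2 stood at 23.6 with and 42.5 without, a ratio of 0.556 (0.387 to 0.785). These were the 2 genes of 10 past 1.5-fold, 1 higher and 1 lower, where 4.87% of 6857 genes were higher and 7.79% lower.

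Below that limit, Bhlhe40 was at 311 against 215 CPM, a ratio of 1.45 (1.29 to 1.62), and Id2 at 807 against 633 CPM, a ratio of 1.28 (1.19 to 1.36). Tbx21 and Eomes were not separated by Pdcd1, with ratios of 1.11 (0.861 to 1.42) and 1.19 (0.926 to 1.51), and neither were Prdm1 (1.20, 0.871 to 1.64) and Batf (1.10, 0.937 to 1.28). Pdcd1-positive cells were deeper, with a median of 5060 against 3030 UMIs. When every cell was thinned to 1500 UMIs and gated on the thinned counts, Tox had a ratio of 1.46, now under the limit, Zeb2 had 0.980, Bhlhe40 1.02 and Id2 1.14, and 0 of 8 genes were past it. The share of all genes past the limit was not computed for the thinned cells. Macrophage genes summed to 244 CPM in Pdcd1-positive and 493 in Pdcd1-negative cells. With cells limited to those with a CD3 UMI and few macrophage UMIs, Zeb2 was at 0.586.

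In CD4+ cells the counts also changed after thinning, which drops shallow cells and changes the gates as well as the depth. In Treg cells (395 with, 2214 without Pdcd1) 0 of 9 were past 1.5-fold, where 3.16% of genes were higher and 5.0% lower. In Tconv cells (282 with, 1487 without) 0 of 9 were past it, where 5.23% were higher and 6.76% lower. Pdcd1-positive cells were deeper here too, with medians of 3568 against 2666 UMIs in Treg and 2867 against 2454 in Tconv cells. After thinning to 1500 UMIs, 1 of 9 genes was past 1.5-fold in Treg cells (Zeb2 at 1.56) and 3 of 8 in Tconv cells (Bhlhe40 at 1.60, Tox at 1.70 and Irf4 at 0.443), against 0 of 8 in CD8+ cells. The share of all genes past 1.5-fold was not computed for thinned cells, so these counts have no background. The thinned ratios are given without intervals. Without thinning, Tox had a ratio of 1.07 (0.860 to 1.31) in Treg and 1.23 (0.886 to 1.69) in Tconv cells. Whether these differ from the 1.68 of CD8+ cells was not tested. Bhlhe40 had an interval above 1 in each lineage without thinning, with 209 against 174 CPM in Treg cells (1.20, 1.06 to 1.36) and 332 against 242 CPM in Tconv cells (1.37, 1.21 to 1.56). After thinning its ratio was 1.17 in Treg and 1.02 in CD8+ cells.

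**Figure D2:**
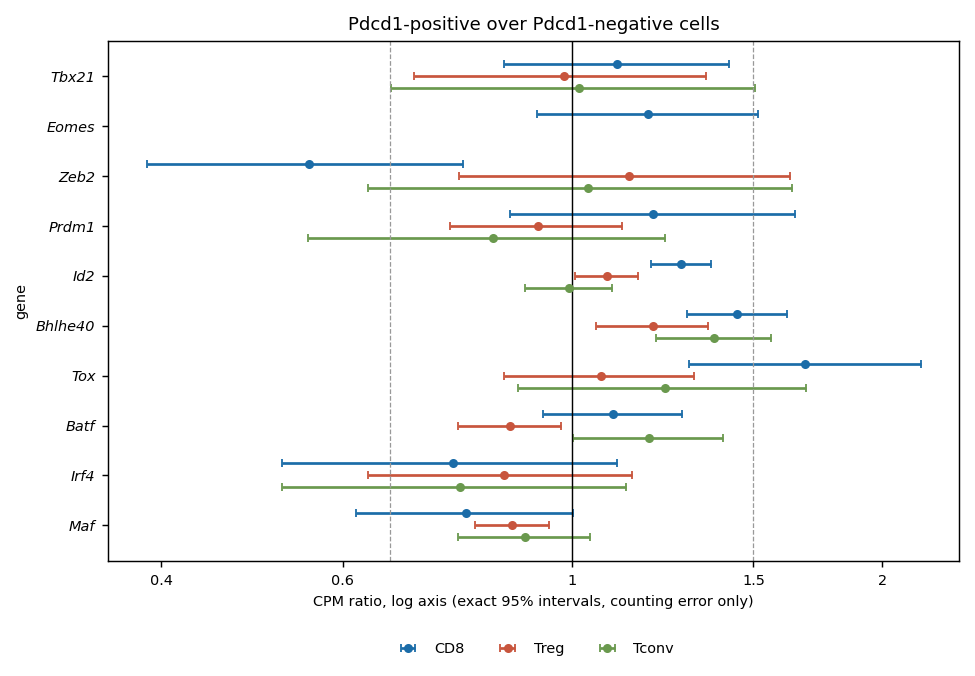
CPM ratio of Pdcd1-positive to Pdcd1-negative cells (x axis, log scale) for each gene (y axis) in CD8+, Treg and Tconv cells, with exact 95% intervals, a solid line at 1 and dashed lines at 1.5-fold either way. Tox at 1.68 and Zeb2 at 0.556, both in CD8+ cells, lie outside the dashed lines, and Bhlhe40 lies above 1 in all 3 lineages. Eomes had too few UMIs in Treg and Tconv cells to be drawn.

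A series of gates, applied in order, divided the CD8+ cells further: 140 cells with Cx3cr1 or S1pr5, genes of circulating terminal effectors, then 87 with Pdcd1 and Havcr2, 73 with Pdcd1 and Tcf7, 161 others with Pdcd1 and 799 with none of Cx3cr1, S1pr5 and Pdcd1. Zeb2 and Tox were highest in different states. Zeb2 had 84.9 CPM (62.6 to 112.5) in the Cx3cr1 or S1pr5 cells, against 22.0 with Pdcd1 and Havcr2, a ratio of 3.86 (2.06 to 7.76), and 32.7 in the 799 cells, a ratio of 2.59 (1.79 to 3.71). Macrophage genes were also higher in the Cx3cr1 or S1pr5 cells, at 665 against 421 CPM in the 799 cells. Among cells with a CD3 UMI and few macrophage UMIs the latter Zeb2 ratio was 3.28.

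Tox had 81.2 CPM (59.9 to 107.7) in cells with Pdcd1 and Havcr2, 64.5 in other Pdcd1-positive cells, 51.4 with Pdcd1 and Tcf7, 40.2 in the 799 cells and 35.4 with Cx3cr1 or S1pr5. The first was 2.30 times the last (1.34 to 4.09), while neighbours in this order had overlapping intervals. Eomes was highest in the Pdcd1 and Tcf7 cells, at 95.2 CPM (67.0 to 131), against 55.9 with Pdcd1 and Havcr2, a ratio of the latter to the former of 0.587 (0.356 to 0.965). Tbx21 ran from 43.0 CPM in other Pdcd1-positive cells to 67.7 with Pdcd1 and Havcr2, a ratio of 1.57 with an interval that included 1 (0.957 to 2.62), and was at 66.9 CPM in the Pdcd1 and Tcf7 cells.

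Id2, Bhlhe40 and Prdm1 were highest with Pdcd1 and Havcr2. Against the 799 cells, Id2 was at 980 and 600 CPM, a ratio of 1.63 (1.48 to 1.79), Bhlhe40 at 355 and 205 CPM, a ratio of 1.74 (1.48 to 2.04), and Prdm1 at 59.2 and 29.9 CPM, a ratio of 1.98 (1.30 to 2.97). In cells with Pdcd1 and Tcf7, Id2 was at 468 and Prdm1 at 20.6 CPM, the latter from 8 UMIs. The ratio of Havcr2 to Tcf7 cells was 2.09 (1.77 to 2.49) for Id2, 1.49 (1.16 to 1.92) for Bhlhe40 and 2.88 (1.31 to 7.18) for Prdm1, which had under 50 UMIs over both states. Batf ran from 108 CPM with Cx3cr1 or S1pr5 to 167 with Pdcd1 and Tcf7, a ratio of 1.55 (1.08 to 2.24). Maf ran from 23.1 CPM with Pdcd1 and Tcf7, from 9 UMIs, to 81.7 in other Pdcd1-positive cells, a ratio of 3.53 (1.73 to 8.11). Irf4 lay between 12.9 and 30.1 CPM, with an interval of the ratio that included 1 (0.859 to 7.94). Depth differed too, with a median of 6722 UMIs in the Havcr2 cells and 3042 in the 799 cells, and its part in these levels was not tested.

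**Figure D3:**
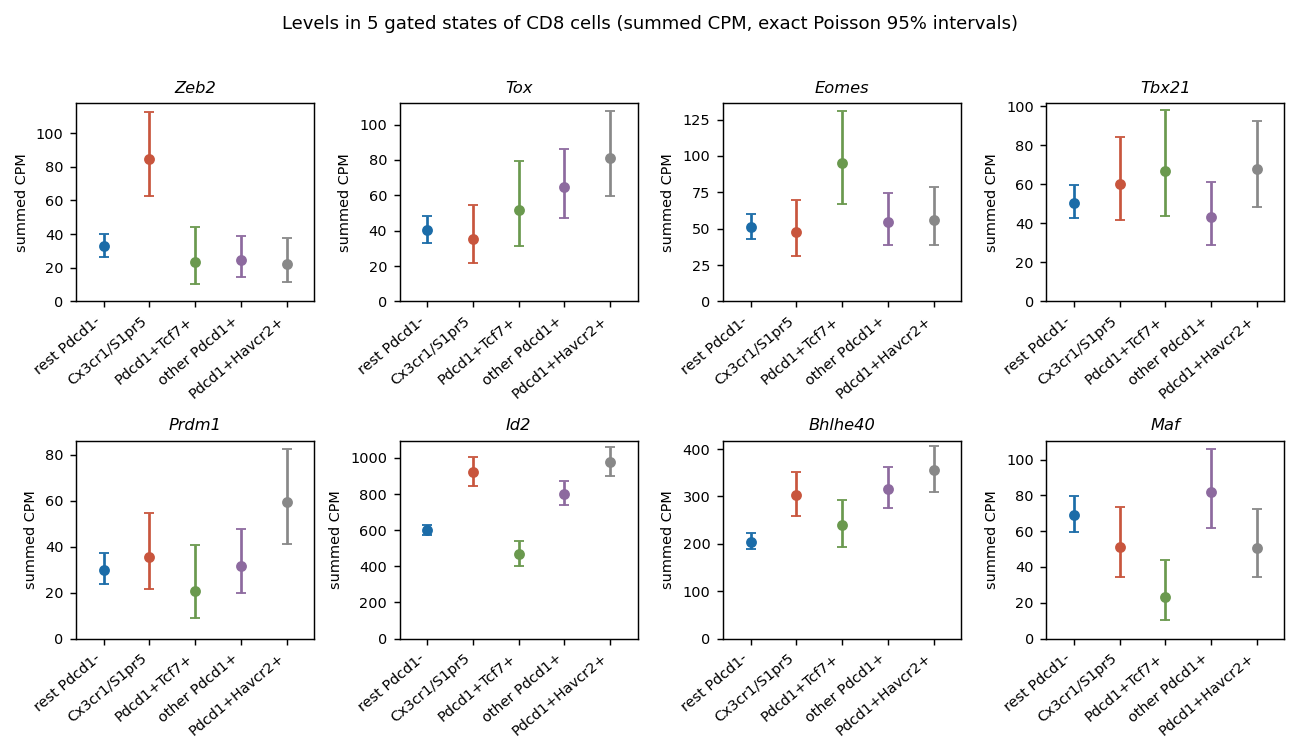
Summed CPM (y axis, from 0, scaled per panel) of 8 of the genes in the 5 CD8+ states (x axis), with exact Poisson 95% intervals. Zeb2 peaks at 84.9 CPM in Cx3cr1 or S1pr5 cells, Tox at 81.2 in Pdcd1 and Havcr2 cells and Eomes at 95.2 in Pdcd1 and Tcf7 cells, where Id2 is lowest, at 468.

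Within single CD8+ cells most pairs of genes with enough cells were seen together about as often as their shares imply. Among 1151 CD8+ cells thinned to 1500 UMIs, 22 of the 45 pairs had an expected overlap of at least 10 cells, and observed over expected ran from 0.853 to 2.08. The 3 pairs whose interval left out 1 involved Bhlhe40 or Prdm1: Bhlhe40 and Irf4 in 22 cells (10.6 expected), Prdm1 and Id2 in 47 (32.2 expected), and Prdm1 and Bhlhe40 in 25 (16.1 expected). Tbx21 and Eomes were seen together in 5 cells, where 6.78 were expected, too few to tell them apart. Summed CPM without thinning also showed differences. Maf was higher in CD8+ cells with a Prdm1 UMI than without, at 110 against 56.2 CPM (1.96, 1.48 to 2.55). It was lower in those with a Tbx21 UMI, at 47.8 against 67.7 CPM (0.706, 0.518 to 0.947).

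Clone size, counted over CD8+ cells that share a clonotype, set Bhlhe40 and Prdm1 apart. Of 921 CD8+ cells with a clonotype, 721 were the only cell of their clone and 200 belonged to 73 clones of 2 or more cells. The most abundant clone had 13 cells, and 6 clones had at least 5. The receptor junctions (CDR3, V to J, 5′ to 3′, with no part singled out by capitals) of the 3 most abundant are shown because they define the groups and because clones 2 and 3 have the same beta junction.
Clone 1 alpha, TRAV6N-7 and TRAJ21: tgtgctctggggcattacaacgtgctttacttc
Clone 1 beta, TRBV15 and TRBJ2-1: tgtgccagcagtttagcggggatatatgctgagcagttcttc
Clone 2 alpha, TRAV8N-2 and TRAJ7: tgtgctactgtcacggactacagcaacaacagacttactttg
Clone 2 beta, TRBV26 and TRBJ2-5: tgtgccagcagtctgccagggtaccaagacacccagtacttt
Clone 3 beta, TRBV26 and TRBJ2-5: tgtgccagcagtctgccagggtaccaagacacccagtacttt
Clone 3, with 7 cells, has no alpha chain in the table, and by beta chain alone clones 2 and 3 are 1 group of 15 cells.

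Bhlhe40 was at 205 CPM in single cells, 411 in clones of 2 and 370 in clones of 3 or more. Expanded against single cells gave 390 and 205 CPM, a ratio of 1.90 (1.67 to 2.17). Prdm1 was at 26.9, 44.0 and 60.3 CPM, with 52.2 against 26.9 for expanded against single cells and a ratio of 1.94 (1.34 to 2.78). For both genes, clones of 2 and of 3 or more had overlapping intervals.

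Irf4 had a ratio of 1.52 with an interval that included 1 (0.994 to 2.28), and Maf was lower in expanded cells, at 36.5 against 60.5 CPM (0.604, 0.409 to 0.869). These made 3 of 10 genes higher and 1 lower, where 5.70% of 6282 genes were higher and 8.91% lower. Id2 was at 890 against 650 CPM, a ratio of 1.37 (1.26 to 1.48). Its thinned shares were 66.2% (59.0 to 72.8) and 50.1% (46.3 to 53.8). Tbx21 had a ratio of 1.36 (0.9996 to 1.84), with 48.3 CPM in single cells, 54.5 in clones of 2 and 76.9 in clones of 3 or more. Its thinned share was 6.69% (4.95 to 8.79) in single cells and 17.9% (10.8 to 27.1) in clones of 3 or more. Tox did not differ by clone size, at 52.2 and 52.0 CPM, a ratio of 1.00 (0.716 to 1.38), and Eomes had a ratio of 0.907 (0.654 to 1.24).

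Pdcd1 was more frequent in the expanded cells, in 48.5% (41.4 to 55.7) against 28.0% (24.8 to 31.4) of single cells, so the ratios were taken on either side of it. Among Pdcd1-negative cells, Bhlhe40 had a ratio of 2.27 (1.88 to 2.74) and Prdm1 2.77 (1.66 to 4.52). Among Pdcd1-positive cells, Bhlhe40 was at 385 against 258 CPM, with an interval of the ratio of 1.25 to 1.79, and Prdm1 had a ratio of 1.29 (0.733 to 2.22). Irf4 had a ratio of 2.71 (1.63 to 4.42) without Pdcd1, and with Pdcd1 0.639 (0.267 to 1.38) from 9 and 30 UMIs, under the minimum of 50. Eomes, at 38.5 against 75.8 CPM, was lower in the expanded cells with Pdcd1 (0.508, 0.300 to 0.825). Whether the sides of Pdcd1 differ was not tested. Macrophage genes summed to 397 CPM in expanded and 214 in single cells, and cycling genes (Mki67, Top2a and Cdk1) to 152 and 117 CPM. Without cycling cells, 5 of the 10 genes were past 1.5-fold in either direction. The share of all genes was not computed for that set, so this count has no background. With cells limited to those with a CD3 UMI and few macrophage UMIs the ratios were 1.85 for Bhlhe40 and 1.93 for Prdm1. Without an upper limit on detected genes they were 1.37 and 1.46.

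Levels varied among the 6 clones of at least 5 cells, on few UMIs. Clone 1 had 480 CPM of Bhlhe40 (340 to 659) and 75.8 of Prdm1 (27.8 to 165), and clones 2 to 6 had 215, 296, 135, 383 and 360 CPM of Bhlhe40. Without clone 1 the ratio of expanded to single cells was 1.86 for both Bhlhe40 and Prdm1. Of the 32 further factors, 11 of 27 were lower in expanded cells, among them Tcf7 at 0.317 times (0.236 to 0.419) and Bach2 at 0.219 times (0.0692 to 0.534), and 5 of 9 effector genes were higher, with Prf1 at 2.60 times (2.20 to 3.07).

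**Figure D4:**
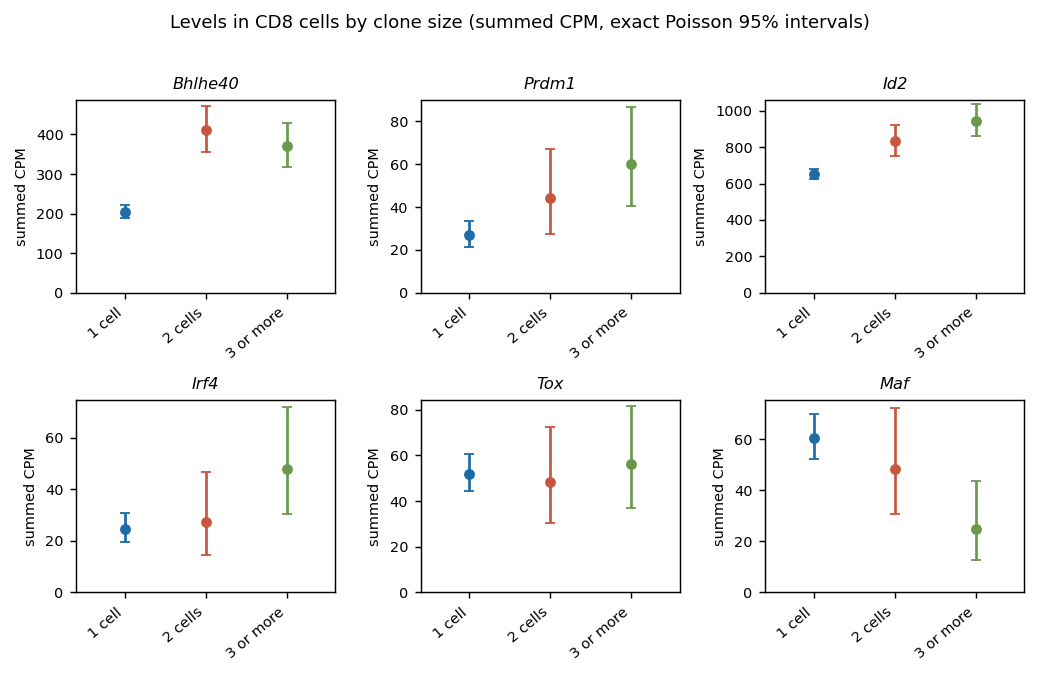
Summed CPM (y axis, from 0, scaled per panel) of 6 genes in CD8+ cells whose clone has 1, 2 or at least 3 cells (x axis), with exact Poisson 95% intervals. Bhlhe40 goes from 205 CPM in single cells to 411 and 370 in larger clones and Prdm1 from 26.9 to 44.0 and 60.3, while Tox stays between 48.2 and 56.1.

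Among Treg cells, Batf was higher where Il1rl1, which encodes the IL-33 receptor chain ST2, was detected. The 504 Treg cells with an Il1rl1 UMI had 379 CPM of Batf and the 2105 without had 234, a ratio of 1.62 (1.47 to 1.78). Irf4 was next, at 54.3 against 38.6 CPM (1.41, 1.09 to 1.80), and Prdm1 was not separated, at 103 and 88.6 CPM (1.16, 0.975 to 1.38). Bhlhe40 was lower, at 150 against 189 CPM (0.793, 0.689 to 0.910), and Maf had a ratio of 0.936 (0.865 to 1.01).

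Batf was the only 1 of 9 genes past 1.5-fold and 0 were lower, where 4.36% of 8380 genes were higher and 7.16% lower. Median depth was similar, at 2850 and 2772 UMIs. Macrophage genes summed to 212 CPM with and 421 without Il1rl1, while Batf was at 44.8 CPM in the macrophage reference. Of the 32 further factors 4 of 27 were higher and 0 lower: Gata3, a known partner of ST2 expression, at 1.77 times (1.57 to 1.997), Klf2 at 1.68, Satb1 at 1.57 and Tox2 at 4.87 times (3.12 to 7.65). Most of these cells have no tumor call, so Il1rl1 and tumor cannot be told apart in them.

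Hashtags linked few cells to a tumor. The library held 1730 UMIs of the 4 tags and 22837655 that matched no tag, so the calls rest on a very small part of it. In all, 939 kept cells could be called (796 B16 and 143 B16–IL-33), and 849 of them rest on 1 tag UMI. In Treg cells, 55 with a B16–IL-33 tag and 245 with a B16 tag, Prdm1 and Batf were higher with the B16–IL-33 tag. Prdm1 was at 166 against 69.1 CPM, a ratio of 2.40 (1.501 to 3.75), from 30 and 65 UMIs. Batf was at 293 against 168 CPM, a ratio of 1.74 (1.25 to 2.39), from 53 and 158 UMIs. Median depth was 2467 UMIs with the B16–IL-33 and 3401 with the B16 tags. After thinning to 1500 UMIs the ratios were 2.39 for Prdm1 and 2.30 for Batf, and 4 of the genes still had 50 UMIs. These were 2 of 6 genes with enough UMIs, and 0 were lower, where 9.94% of 3019 genes were higher and 13.2% lower.

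Maf, Id2, Bhlhe40 and Tox had ratios between 0.990 and 1.04, and after thinning 0.660, 1.17, 1.504 and 1.21. Irf4, with 10 and 26 UMIs, fell short of the minimum of 50 and was at 55.2 against 27.6 CPM, with an interval of the ratio of 0.860 to 4.28. By tag, Prdm1 was at 70.3 and 71.6 CPM with the 2 B16 tags and at 219 and 145 with the 2 B16–IL-33 tags. Batf was at 137 and 179 against 299 and 290 CPM. Both B16–IL-33 tags, with 18 and 37 Treg cells, were above both B16 tags, with 80 and 160, for both genes. Levels of so few cells rest on small counts. The tag names do not say whether the tags of a tumor stand for different mice.

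Il1rl1 was detected in 23.6% of the B16–IL-33 tagged Treg cells (13.2 to 37.0) and 4.90% of the B16 tagged ones (2.56 to 8.40). Among tagged Treg cells without an Il1rl1 UMI, Prdm1 kept a ratio of 2.41 (1.44 to 3.92) and Batf 1.82 (1.28 to 2.56). Conversely, within B16 tagged Treg cells the Batf ratio of Il1rl1-positive to negative cells was 0.806 (0.319 to 1.70), from 12 positive cells with 7 Batf UMIs, an interval that also holds the 1.62 of all Treg cells.

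**Figure D5:**
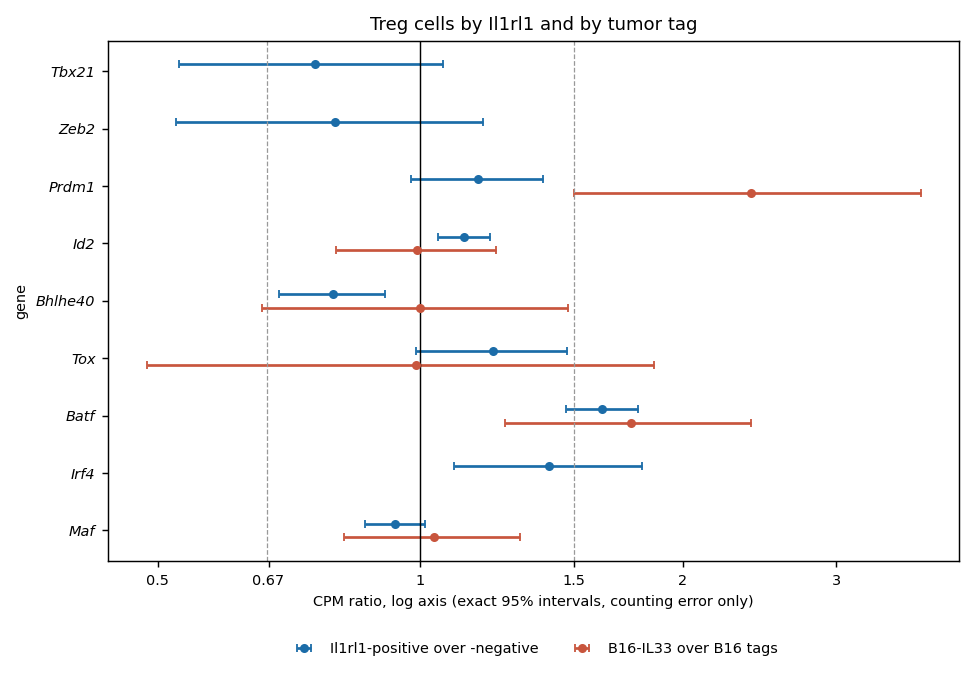
CPM ratios in Treg cells (x axis, log scale) for each gene (y axis), for Il1rl1-positive over negative cells and for B16–IL-33 over B16 tagged cells, with exact 95% intervals, a solid line at 1 and dashed lines at 1.5-fold either way. Batf lies at 1.62 and 1.74, Prdm1 at 1.16 and 2.40, and genes with under 50 UMIs over both groups are not drawn.

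In the other lineages the tagged cells were too few for most of the genes. In CD8+ cells (19 and 103 tagged) 3 genes had enough UMIs and 0 were past 1.5-fold, where 9.16% of genes were higher and 12.6% lower. Id2 had a ratio of 1.20 (0.897 to 1.60), Bhlhe40 0.890 (0.487 to 1.53) and Batf 0.941 (0.427 to 1.87). In Tconv cells (17 and 164 tagged) 1 of 4 was higher and 0 lower, where 10.7% were higher and 22.3% lower. That gene was Id2, at 1081 against 560 CPM (1.93, 1.39 to 2.63), and with the tags numbered 2 alone its ratio was 1.05.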

How the data were processed

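TCR-β-positive cells of the B16 and B16–IL-33 tumors were hashtagged and pooled. The authors deposited raw counts of UMIs per gene and barcode from Cell Ranger (3.1.0 in the matrix header, 6.1.1 in the processing notes) on a combined human and mouse (mm10) reference, raw counts of UMIs per hashtag, and TCR contigs with their counts of UMIs. No values were normalized, and intronic reads, strand and read filters are not given in the sources used here.

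Mouse genes were analysed in Python 3.11.15 with NumPy 2.4.6, SciPy 1.17.1 and pandas 2.3.3. Coordinates and names were matched in GENCODE vM21, which held 30934 of the 31053 identifiers. Counts were summed over cells and divided by all mouse UMIs of the group (CPM). Level intervals are exact Poisson, ratio intervals exact conditional binomial and shares Clopper-Pearson, all at 95%. They cover counting error only. With 1 library there is no test across samples. A group at 0 was set against a floor of 3 counts. Shares come from 1 draw to 1500 UMIs per cell (seed 1), without shallower cells. Genes with at least 50 UMIs over both groups and a ratio of at least 1.5-fold were counted. No doublet caller was used, and cells with at least 2 beta chains were left out in an alternative.

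Cells with UMIs of 1 tumor's tags and none of the other's were assigned to that tumor, and 5 cells with both were not assigned. The ratio and interval code was tested on simulated data. The 10 genes, the lists of 32 further factors, 10 effector and 8 inhibitory genes, the gates and the tests were chosen with earlier results of these data known. The genes named from those lists were picked from their values. One planned gate of the CD8+ cells and the results that need it are not reported here, so its cells were merged with the other cells that had none of the gate genes used.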

Additional observations from a re-analysis of the deposited data

Results flagged for a closer look

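The combined reference gave 11 UMIs in 11 barcodes to the human ZEB2 gene, outside the mouse genes analysed and above the 3 counts that a count of 0 allows. Of these barcodes, 6 also held mouse Zeb2 UMIs, and mouse Zeb2 had 2406 UMIs over all barcodes. The human counterparts of the other 9 genes had 3 UMIs or fewer.

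Batf moved in opposite directions with Pdcd1 in the CD4+ lineages, with a ratio of Pdcd1-positive to Pdcd1-negative cells of 1.19 (1.00 to 1.40) in Tconv cells and 0.872 (0.777 to 0.976) in Treg cells. The difference between the lineages was not tested, and neither ratio reached 1.5-fold.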

How the results depend on the processing

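Under 21 alternatives, 107 summary values were recomputed and 83 stayed close to the value reported. These were counts of genes past 1.5-fold, close when within 1.5 times of the count reported. The Eomes and Tbx21 CPM of the macrophage reference were included, close when inside their reported interval. Of 837 ratios, 751 stayed inside their reported interval and 82 left it. A change of side was counted only for ratios reported past 1.5-fold, and 4 of these moved to the other side of 1. In those 4, Zeb2 in NKT against Tconv cells had 0.260 among cells with a CD3 UMI and few macrophage UMIs and 0.767 by the mean CPM over single cells. Irf4 in expanded against single clones had 0.639 among Pdcd1-positive cells, from under 50 UMIs, and Batf by Il1rl1 had 0.806 among B16 tagged Treg cells. The cause was not tested.

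For Pdcd1 in CD8+ cells the count went from 2 to 1 by the mean CPM over single cells and to 0 after thinning to 1500 UMIs. For Pdcd1 in Treg cells it went from 0 to 1 after thinning, with few macrophage UMIs and with a minimum of 20 UMIs, and for Tconv cells from 0 to 3 after thinning (Bhlhe40, Tox and Irf4). For expanded clones it went from 4 to 1 with no upper limit on detected genes, 2 with clone size over all barcodes of the TCR table, 2 among Pdcd1-positive and 7 among Pdcd1-negative cells. For Il1rl1 in Treg cells it went from 1 to 2 with no upper limit on detected genes, by the mean CPM over single cells, after thinning and among B16 tagged cells. For tagged CD8+ cells it went from 0 to 1 with no upper limit on detected genes, after thinning and with the tags numbered 1 alone. For tagged Tconv cells it went from 1 to 2 with a mitochondrial limit of 10%, no upper limit on detected genes, few macrophage UMIs, no cycling cells, the mean CPM over single cells and the tags numbered 1 alone. The share of all genes past 1.5-fold was not computed under the alternatives, so these counts have no background. Prdm1 and Batf in tagged Treg cells kept ratios above 1.5 under each alternative.

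Alternatives that split by Pdcd1, Il1rl1 or tumor tag, or that filtered the CD8+ states or the macrophage reference, were chosen after seeing the data. Eomes in the macrophage reference fell from 12.3 to 1.18 CPM without cells that hold an NK marker UMI. Small numbers of UMIs limit the Irf4, Prdm1 and Zeb2 values in NKT cells, with 3, 1 and 12 UMIs, and most values in tagged cells. No paired analysis was possible because there is 1 pooled library and no result comes from a test between samples.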
